A study of Mus musculus with 12 samples.

Results

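Glutathione transferases and peroxidases are described here by 10 genes of glutathione chemistry, out of 23309 genes listed in the RNA-seq values. The genes are Gstm1, Gstm5, Gstm7, Gstp1, Mgst1, Gpx1, Gpx3, Gpx4, Gpx8 and Gsr. Gstm7 and Gpx8 were chosen by measured values, since their FPKM at 0 h differed by genotype in opposite directions, and the others give the family around them. All 10 passed a filter that asked for 1 FPKM or more in 2 or more of the 12 libraries, as did 11516 genes in all. Gstm5 and Gstm7 passed it through 4 HMGN1-OE libraries each and no wild-type library, and Gpx3 through 2 wild-type libraries and no HMGN1-OE library, so for these genes the filter itself was decided by a difference between the genotypes. FPKM (fragments per kilobase of transcript, scaled to the mapped fragments) is a level per transcript length, so levels of different genes may be compared on it.

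The 12 libraries fall into 6 groups of 2, HMGN1-OE cells and wild-type cells at 0, 36 and 96 h after estradiol (E2) was withdrawn. Both genotypes were CD117-positive bone marrow cells of C57BL/6 mice, immortalized with a retrovirus that carries HoxB8 fused to the estrogen receptor and grown in interleukin 3. E2 keeps the fusion protein active and the cells immature, and its withdrawal lets them mature toward neutrophil-like cells. HMGN1-OE mice carry human HMGN1, a nucleosome-binding protein, as a transgene, and the control marrow came from wild-type littermates. The promoter of the transgene, the ages of the marrow donors, and whether a culture was 1 clone or a pool are not given in the sources used here. The level of the human transgene was not analysed here.

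Glutathione is the main small thiol of the cytosol. Glutathione transferases couple it to electrophiles, glutathione peroxidases use it to reduce hydrogen peroxide and lipid peroxides, and glutathione reductase returns the oxidized form to the reduced form with NADPH. In neutrophils and their precursors these enzymes act beside a lineage that is known for making reactive oxygen species on purpose. Many genes of the system carry an antioxidant response element, the DNA site of the transcription factor Nrf2.

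The libraries of a group are called A and B, since their column names give no replicate number shared with the sample names. The sum of FPKM per library ran from 228955 to 1442573 after the authors' normalization to spiked-in ERCC RNAs, and how deeply each library was read is unknown. Silent genes are not at 0 but at values from 0.0967 to 0.105. Only 7 of the 12 libraries correlated best with the other library of their own group. Wild-type library A at 0 h was most like wild-type library B at 36 h (Pearson r across genes 0.980), and wild-type library B at 0 h was most like wild-type library A at 36 h (r = 0.970). Flt3, a receptor of immature progenitors, stood at 67.0 FPKM in wild-type library B at 36 h against 4.10 in library A, with 47.5 and 67.3 FPKM at 0 h. It was picked from 7 progenitor markers after its values were seen, and the others are given as sums only. Whether labels of these libraries were exchanged was not tested. If they were, a library from 36 h was among those labelled 0 h whose values chose Gstm7 and Gpx8. As a check of the labelled cell type, the summed level of 7 progenitor markers was 821 to 1236 FPKM at 0 h and 17.2 to 45.6 FPKM at 96 h. The summed level of 10 listed late neutrophil genes was 1173 to 2955 FPKM at 0 h and 66995 to 172965 FPKM at 96 h, where S100a9 is listed at 0.0511 FPKM in wild-type library A against 26546 FPKM in library B. Markers of other lineages were present too: 10 mast cell and basophil genes summed to 459 to 1082 FPKM at 0 h and 960 to 3011 FPKM at 36 h, and 6 eosinophil genes to 1023 to 2229 FPKM in wild-type against 214 to 528 FPKM in HMGN1-OE libraries at 96 h. The 7 stromal markers summed to at most 3.37 FPKM in any library, and the 5 lymphoid markers to at most 2.05 FPKM.

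Upstream sequences are shown for the 3 genes called between the genotypes at 36 h, since Gstm5 and Gstm7 moved together and Gpx8 moved the other way. They were taken from RefSeq on GRCm38.p6, 5′ to 3′ on the strand of the gene, and end before the first base that GENCODE vM21 gives to the gene. RefSeq windows of 250 bases before and 50 bases after a start were matched for 9 of the 10 genes, in 15 windows. Capitals mark TGACNNNGC, the core of the antioxidant response element, searched on both strands. The Gstm5 sequence is chr3:107895604-107895820 on the plus strand, the Gstm7 sequence is chr3:107931818-107932067 on the minus strand, and the Gpx8 sequence is chr13:113046411-113046638 on the minus strand. The shorter stretch surrounds the match in the window of the second Gstm7 start.
Gstm5 upstream: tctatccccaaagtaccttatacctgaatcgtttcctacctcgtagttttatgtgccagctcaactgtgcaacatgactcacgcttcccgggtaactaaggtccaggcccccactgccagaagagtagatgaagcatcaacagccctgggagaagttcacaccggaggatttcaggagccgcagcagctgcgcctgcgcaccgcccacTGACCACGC
Gstm7 upstream, first start: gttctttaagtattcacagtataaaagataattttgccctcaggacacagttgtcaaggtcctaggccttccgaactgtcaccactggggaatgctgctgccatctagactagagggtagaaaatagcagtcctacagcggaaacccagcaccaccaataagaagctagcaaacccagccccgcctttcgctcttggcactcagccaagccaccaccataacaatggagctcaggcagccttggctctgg
Gstm7 second start, match with 10 bases on each side: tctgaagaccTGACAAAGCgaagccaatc
Gpx8 upstream: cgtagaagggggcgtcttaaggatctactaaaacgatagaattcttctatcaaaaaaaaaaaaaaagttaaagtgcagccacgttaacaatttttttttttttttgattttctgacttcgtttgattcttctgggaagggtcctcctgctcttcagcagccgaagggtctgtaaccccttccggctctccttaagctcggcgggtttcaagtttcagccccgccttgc
The core was present in a window of 3 of the 9 matched genes. In Gstm5 it began 42 bases before the start, and in Gstm7 it began 129 bases before the second start. The third match lay in Mgst1, 56 bases before the start on the other strand (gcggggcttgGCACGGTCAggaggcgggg), and no window of Gpx8 held it. Of all 32851 windows in the same table, 12.4% held the core, or 13.99% of 27025 genes. Only the Gstm5 match lies before the first base that GENCODE vM21 gives to the gene. That base is chr3:107931817 on the minus strand for Gstm7 and chr6:138140316 on the plus strand for Mgst1, and both matches lie inside these genes. A match of these letters describes the sequence and was not tied to any measured binding.

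Gstm5 and Gstm7 are neighbours at one end of the cluster of mu class transferase genes on chromosome 3. Along GRCm38 the cluster runs Gstm5, Gstm7, Gstm6, Gstm3, Gstm2, Gstm1 and Gstm4 in GENCODE vM21, with Gstm5 at chr3:107895821-107898686 on the plus strand and Gstm7 at chr3:107926334-107931817 on the minus strand. Gstm1 lies at chr3:108012255-108017973, and Gpx8 at chr13:113042753-113046410. The other genes lie on chromosomes 19 (Gstp1), 9 (Gpx1), 11 (Gpx3), 10 (Gpx4), 8 (Gsr) and 6 (Mgst1).

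Gstm7, a mu class cytosolic transferase, was the gene of the family that was listed near background in wild-type cells and well above it in HMGN1-OE progenitors. At 0 h its level was 32.4 and 10.4 FPKM in the HMGN1-OE libraries A and B, and 0.153 and 0.324 FPKM in the wild-type libraries. The 36 h level was 2.75 and 7.99 FPKM in HMGN1-OE cells and 0.375 and 0.327 FPKM in wild-type cells. At 96 h it was 0.223 and 0.503 FPKM in HMGN1-OE cells and 0.0937 and 0.0671 FPKM in wild-type cells. At every time the lower HMGN1-OE value exceeded the higher wild-type value, but at 96 h all 4 were under 1 FPKM. The 0 h values chose this gene, so their difference of 3.98 on the log2(FPKM + 1) scale (limma standard error 0.36, n = 2 per group) is a description and was not tested. It ranked as number 8 from the top among the 11516 genes.

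At 36 h, in libraries labelled apart from those of the choice, Gstm7 was higher in HMGN1-OE cells by 2.10 on the log2(FPKM + 1) scale (standard error 0.36, limma adjusted p = 1.16e-06, higher in both libraries). The mean FPKM was 5.37 ± 3.71 (SD, n = 2) against 0.351 ± 0.0339, a ratio of 15.3 whose denominator is close to the level of silent genes. Gstm7 entered the tested genes only through HMGN1-OE libraries, so this p is no independent support, and without the filter it was 0.592. Without HMGN1-OE library B the difference was 1.47 with an adjusted p of 0.126, and without wild-type library B it was 2.08 with an adjusted p of 1.36e-04. The call held in 6 of 13 alternative settings, with adjusted p-values from 2.42e-07 to 0.592. In HMGN1-OE cells the level at 36 h was below that at 0 h by 1.75 on the log2 scale, which is a description because the 0 h values chose the gene.

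Gstm5, the neighbour of Gstm7 and also a mu class gene, showed the same order of genotypes at a lower level. HMGN1-OE cells held 6.95 and 1.21 FPKM at 0 h against 0.183 and 0.746 FPKM in wild-type cells. The 36 h values were 2.03 and 5.58 FPKM against 0.881 and 0.908 FPKM. At both times the genotypes were apart. The 96 h values overlapped, with 0.0870 and 0.795 FPKM against 0.135 and 0.0721 FPKM. The 36 h difference was 1.24 on the log2(FPKM + 1) scale (standard error 0.34, limma adjusted p = 0.0243), and it held in 3 of 13 alternative settings. Gstm5 too entered the tested genes only through HMGN1-OE libraries, and without the filter the adjusted p was 0.592. Without HMGN1-OE library B at 36 h the difference was 0.68 with an adjusted p of 0.715. The adjusted p was 0.0639 without wild-type library B and 0.0715 without wild-type library A. The antisense transcript 4933431E20Rik overlaps 178 of the 1278 exonic bases of Gstm5, and it was listed at 0.0903 to 0.275 FPKM in all 12 libraries.

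Gstm1, the most abundant transferase of the set at 0 and 36 h, did not share this pattern. Its level at 0 h was 396 and 1306 FPKM in wild-type and 461 and 375 FPKM in HMGN1-OE libraries, and the genotypes overlapped. At 36 h it was 1307 and 964 FPKM in wild-type and 859.7 and 615 FPKM in HMGN1-OE libraries. The 36 h difference was -0.63 (standard error 0.60, limma adjusted p = 0.496), close to the median difference of all genes at that time. At 96 h it was 106 and 58.9 FPKM in wild-type and 149 and 223 FPKM in HMGN1-OE libraries, which did not overlap, and the difference of 1.19 had an unadjusted p of 0.0480 and an adjusted p of 0.859. Within a library, the ratio of Gstm7 to Gstm1 ran from 0.000248 to 0.0703 over the 12 libraries, while the ratio of Gstm3 to Gstm1 stayed between 0.0387 and 0.0463. Gstm1 shares 25.7% of its 36-base stretches with other genes, 11.4% with Gstm3 and 19.9% with Gstm2-ps1, so reads of these genes could have been exchanged in the authors' counting. Gstm7 shares 1.45% of its stretches.

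**Figure D1:**
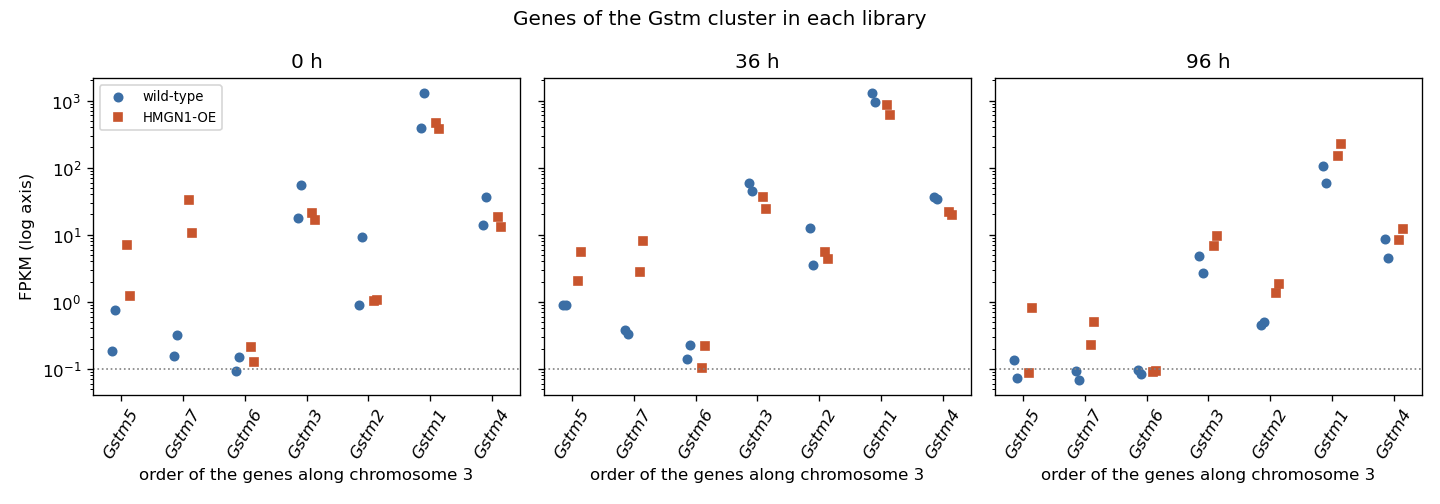
FPKM on a log axis of the 7 genes of the mu class cluster in their order along chromosome 3, at 0, 36 and 96 h. Circles are wild-type and squares HMGN1-OE libraries, 2 of each per time, and the dotted line marks the level at which silent genes are listed. At 0 and 36 h both HMGN1-OE libraries lie above both wild-type libraries for Gstm5 and Gstm7 and for no other gene of the cluster.

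Gstp1, the pi class transferase, did not pass the test between genotypes at 36 or 96 h. It stood at 87.6 and 157 FPKM in wild-type and 174 and 91.1 FPKM in HMGN1-OE libraries at 0 h. At 36 h it stood at 172 and 185 FPKM in wild-type and 121 and 132 FPKM in HMGN1-OE libraries, a difference of -0.49 (standard error 0.56, limma adjusted p = 0.496). The 96 h values were 32.2 and 14.9 FPKM in wild-type against 28.5 and 45.1 FPKM in HMGN1-OE cells, and the genotypes overlapped at 0 and 96 h but not at 36 h. Gstp1 shares 37.2% of its 36-base stretches with Gstp2, and the ratio of the pair was 1.36 to 1.5004 in all 12 libraries, so the values do not separate them.

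Mgst1, a microsomal transferase of the endoplasmic reticulum and the outer mitochondrial membrane, was the 1 gene of the 10 called higher at 96 h than at 36 h in both genotypes. In HMGN1-OE cells it was 4.32 and 3.92 FPKM at 0 h, 27.8 and 32.1 FPKM at 36 h, and 186 and 244 FPKM at 96 h. In wild-type cells it was 8.31 and 40.8 FPKM at 0 h, 114 and 14.8 FPKM at 36 h, and 202 and 121 FPKM at 96 h. The HMGN1-OE libraries rose without overlap from each time to the next, while the wild-type libraries of 0 and 36 h crossed. The rise from 0 to 36 h in HMGN1-OE cells was 2.59 (standard error 0.54, limma adjusted p = 1.80e-04), and the call held under 7 of 13 alternatives. It was lost without HMGN1-OE library B at 36 h (adjusted p = 0.0606), after centring of the libraries (0.202), after quantile normalization (0.206), without the trend (0.0503), and without the filter or without moderation (0.99999 each). In wild-type cells the same change was 1.11 (standard error 0.54, adjusted p = 0.589). Library A alone gave 3.62, which sets 1 library at each time against the other and has no replicate check.

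Mgst1 rose between 36 and 96 h by 1.89 in wild-type cells (standard error 0.54, limma adjusted p = 6.49e-04) and by 2.79 in HMGN1-OE cells (standard error 0.54, adjusted p = 2.75e-06). With libraries centred on their medians these rises were larger, 4.22 and 4.13. Without wild-type library B at 36 h, whose Mgst1 level of 14.8 FPKM was the lower of the pair, the wild-type rise was 0.46 with an adjusted p of 0.550. The difference of the rise between genotypes did not pass the limma interaction test (0.90, standard error 0.76, adjusted p = 0.359). Between these times 3.15% of all genes rose in wild-type cells, and 4.02% did so in HMGN1-OE cells. The higher HMGN1-OE value was under the lower wild-type value at 0 h, and at 36 and 96 h the genotypes overlapped.

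Gpx8, a peroxidase anchored in the endoplasmic reticulum membrane that has cysteine in place of selenocysteine, was the 1 gene of the 10 called lower in HMGN1-OE cells at 36 h. At 0 h its level was 20.8 and 91.7 FPKM in wild-type and 2.62 and 0.809 FPKM in HMGN1-OE libraries. At 36 h it was 51.3 and 55.1 FPKM in wild-type and 2.68 and 3.25 FPKM in HMGN1-OE libraries. At 96 h it was 0.195 and 0.0436 FPKM in wild-type and 0.181 and 0.0555 FPKM in HMGN1-OE libraries. The genotypes did not overlap at 0 and 36 h, and at 96 h all 4 libraries were near the level of silent genes. The 0 h values chose this gene, and their difference of -4.13 on the log2(FPKM + 1) scale (standard error 0.43) was not tested. It ranked as number 9 from the bottom among the 11516 genes, and the wild-type libraries themselves differed 4.40-fold. Without wild-type library B the 0 h difference was -3.09, and without library A it was -5.18.

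At 36 h Gpx8 was lower in HMGN1-OE cells by 3.78 on the log2(FPKM + 1) scale (standard error 0.43, limma adjusted p = 9.65e-16, lower in both libraries). Mean FPKM was 2.96 ± 0.408 (SD, n = 2) in HMGN1-OE and 53.2 ± 2.65 in wild-type cells, a ratio of 17.9. The difference kept its direction in 14 of 14 alternative settings and was called in 11 of them. It was not called without the filter on low values (adjusted p = 0.250), after quantile normalization (0.0615) or without moderation (0.501). Without wild-type library B at 36 h it was -3.73 with an adjusted p of 7.78e-11.

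Several marker sums differed by genotype, and others overlapped. At 36 h 84.4% of all genes lay lower in HMGN1-OE libraries without overlap, with a median difference of -0.54 over all genes. Beside that, the median of the tested genes was -0.34 for the primary granule list and -1.39 for the late neutrophil list. It was -0.92 for the monocyte, -0.79 for the eosinophil and -0.87 for the progenitor list. At 36 h the summed level of 10 late neutrophil genes was 958 to 2053 FPKM in wild-type and 202 to 557 FPKM in HMGN1-OE libraries. The 4 primary granule genes summed to 17298 to 21361 FPKM in wild-type and 11892 to 15190 FPKM in HMGN1-OE libraries, while the 7 progenitor markers summed to 832 to 1846 and 713 to 748 FPKM. At that time the 6 eosinophil markers summed to 16.0 to 70.1 FPKM in wild-type and 9.55 to 12.1 FPKM in HMGN1-OE libraries. The 7 monocyte markers summed to 160 to 175 against 107 to 134 FPKM. The mast cell and basophil sums (960 to 3011 against 1282 to 1324 FPKM) and the megakaryocyte sums (27.2 to 34.4 against 22.4 to 38.8 FPKM) overlapped. The primary granule sums were also apart at 0 h (7355 to 15203 against 4895 to 7036 FPKM) and, in the other order, at 96 h (107 to 651 against 778 to 2291 FPKM). The late neutrophil sums were apart in the other order at 96 h (66995 to 96389 FPKM in wild-type and 121077 to 172965 FPKM in HMGN1-OE libraries). S100a9 counts among them, is listed near 0 in wild-type library A, and stood at 51875 and 73461 FPKM in the HMGN1-OE libraries. Most genes of the list did not follow the sums. Of its 10 tested genes, 7 had a 96 h difference below 0 and 3 above, with 1 called in each direction. Their median was -0.21, beside 0.36 for all genes, so the sums do not give the direction of the list. The eosinophil sums were apart in the other order at 0 h (7.21 to 15.5 FPKM in wild-type and 19.001 to 28.0 FPKM in HMGN1-OE libraries). The part of these differences in the levels of the 10 genes was not tested. In bulk RNA, fewer cells of a type and less RNA per cell cannot be told apart.

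Between 36 and 96 h Gpx8 fell by 5.60 in wild-type cells (standard error 0.43, limma adjusted p = 7.81e-36) and by 1.82 in HMGN1-OE cells (standard error 0.43, adjusted p = 1.23e-04). Between genotypes these falls differed by 3.78 in the interaction test (standard error 0.61, adjusted p = 2.46e-07), and Gpx8 was the 1 gene of the 10 past the threshold, where 0.547% of all genes were. Both genotypes ended near the floor of the values, so the interaction has the size of the 36 h difference. Both falls also stayed below 0 when libraries were centred on their medians, at -3.28 and -0.48, of which the second was not called (adjusted p = 0.316). Gpx8 shares none of its 36-base stretches with another gene. Cdc20b runs across it on the other strand without sharing an exonic base.

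None of the remaining peroxidases, nor the reductase, passed the test between genotypes at 36 or 96 h. Gpx1, the abundant selenoenzyme that reduces hydrogen peroxide in the cytosol, had the highest level of the 10 genes in each of the 6 groups. It was 888 and 1924 FPKM in wild-type and 1182 and 774 FPKM in HMGN1-OE libraries at 0 h, and 2139 and 2070.0 against 1552 and 1405 FPKM at 36 h. At 96 h it was 409 and 159 FPKM in wild-type and 353 and 545 FPKM in HMGN1-OE libraries, so the genotypes were apart at 36 h and overlapped at the other times. Neither difference passed the test (-0.51 at 36 h, limma adjusted p = 0.499, and 0.78 at 96 h, adjusted p = 0.859).

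Gpx4, which reduces phospholipid hydroperoxides in membranes, was 272 and 587 FPKM in wild-type and 479.9 and 299 FPKM in HMGN1-OE libraries at 0 h. The 36 h values were 640.2 and 597 against 439 and 462 FPKM, and those of 96 h were 177 and 91.8 against 158 and 230.3 FPKM. The genotypes were apart at 36 h and overlapped at 0 and 96 h. Its genotype difference at 0 h was -0.08 on the log2 scale, and it was 0.47 without wild-type library B, 0.26 without HMGN1-OE library B and 0.054 after centring. Gpx4 shares 37.6% of its 36-base stretches with the pseudogene Gpx4-ps2.

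Gsr, the reductase itself, was 121 and 317 FPKM in wild-type and 160.4 and 113 FPKM in HMGN1-OE libraries at 0 h. The 36 h values were 444 and 275 against 311 and 242 FPKM, and those of 96 h were 108 and 69.4 against 193 and 157 FPKM. The genotypes overlapped at 0 and 36 h and were apart at 96 h, where the difference of 0.9995 (standard error 0.59) had an adjusted p of 0.859 (limma).

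Gpx3, the secreted peroxidase of plasma, was near the floor in most libraries. It exceeded 1 FPKM in 2 libraries, wild-type library B at 0 h (2.75 FPKM) and wild-type library A at 36 h (3.58 FPKM), which are the pair that resembled each other. The other wild-type libraries of these times stood at 0.156 and 0.141 FPKM, and the 6 HMGN1-OE libraries at 0.115 to 0.395 FPKM. The 36 h difference of -0.87 was not called (standard error 0.31, limma adjusted p = 0.230), and it ran from -1.88 without wild-type library B at 36 h, where it was called (adjusted p = 7.29e-06), to 0.13 without library A (adjusted p = 0.740). Each of these leaves 1 wild-type library at 36 h, whose spread is assumed to be like that of the other groups, and the gene was tested only because those 2 wild-type libraries passed the filter. Gpx2, Gpx5, Gpx6 and Gpx7, the other peroxidase genes of the table, were listed under 1 FPKM in every library.

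**Figure D2:**
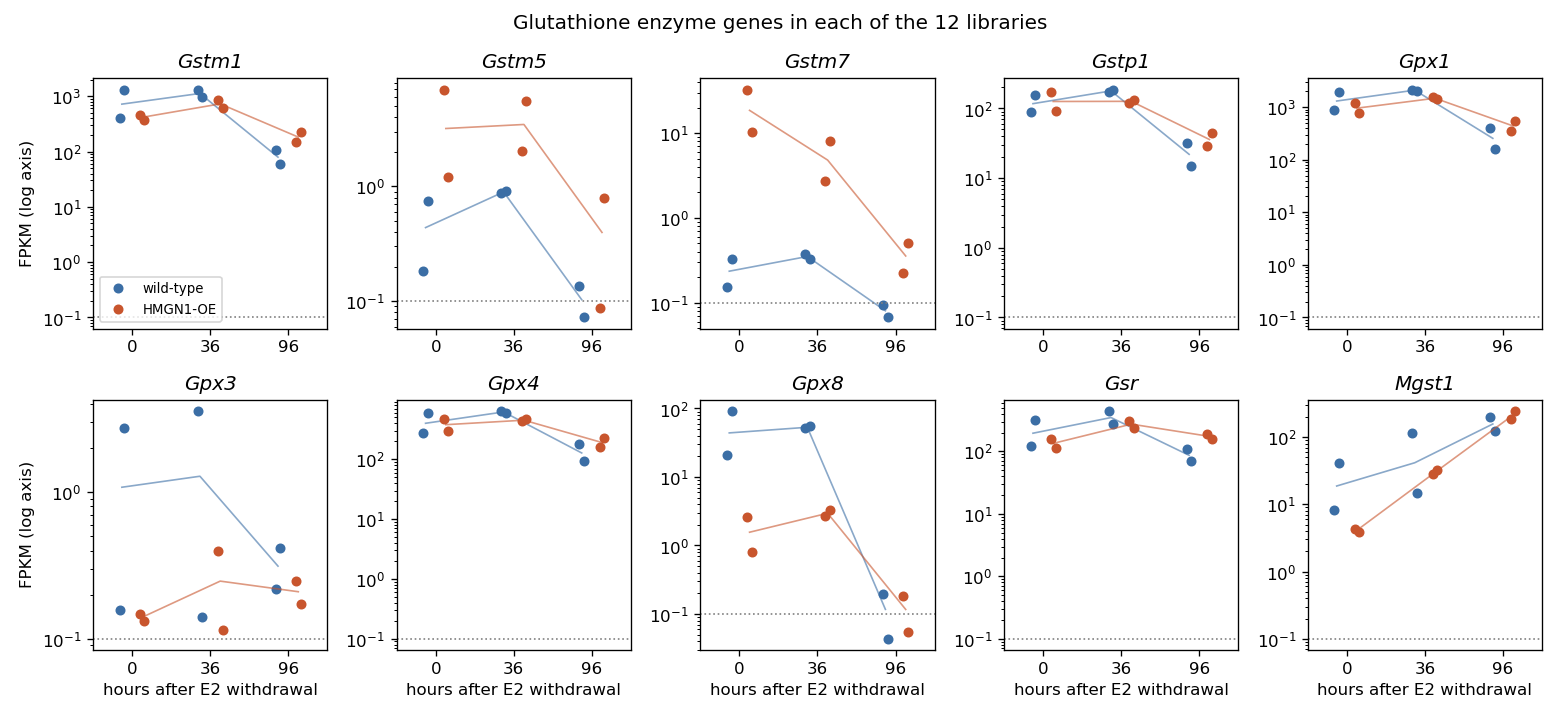
FPKM on a log axis of each of the 10 genes at 0, 36 and 96 h after E2 withdrawal, with a point per library, wild-type in blue and HMGN1-OE in orange. Lines join the group means of log2(FPKM + 1) turned back to FPKM, and the dotted line marks the level at which silent genes are listed. Gstm7 and Gstm5 lie higher and Gpx8 lower in HMGN1-OE cells at 0 and 36 h, and Mgst1 is the gene that climbs to 121 to 244 FPKM at 96 h.

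By mean FPKM, Gpx1 ranked number 1 and Gpx4 number 3 in each of the 6 groups, and Gstm1 ranked number 2 in the 4 groups of 0 and 36 h and number 4 or 5 at 96 h. Mgst1 moved from rank 7 at 0 h to rank 2 at 96 h in both genotypes. Gstm7 had rank 10 in each wild-type group and rank 6 in HMGN1-OE cells at 0 h, and Gpx8 had rank 6 in wild-type and rank 9 in HMGN1-OE cells there. Neighbours in this order could overlap across libraries and still keep their order within each. In wild-type cells at 0 h Gpx4 (272 and 587 FPKM) and Gsr (121 and 317 FPKM) overlapped, as did Gpx1 (888 and 1924 FPKM) and Gstm1 (396 and 1306 FPKM), while Gpx4 exceeded Gsr and Gpx1 exceeded Gstm1 in both libraries. In wild-type cells at 0 h the 2 libraries differed 2.17-fold in Gpx1, 2.16-fold in Gpx4 and 4.91-fold in Mgst1, and in Gpx1, Gpx4 and Mgst1 alike library B held the higher value.

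At 0 h, 5 of the 10 genes had no overlap between genotypes, as had 7.93% of all genes. This count includes the values that chose the genes, and nothing is read from it. At 36 h, 3 of the 10 were called, 2 higher (background 0.417%) and 1 lower (background 0.842%), or 1.26% of all genes in either direction. The 2 called higher, Gstm5 and Gstm7, are those that passed the filter only through HMGN1-OE libraries, so the count is no support. The median difference of all genes at 36 h was -0.54, and the median of the 10 was -0.48. Relative to that median the difference was 2.64 for Gstm7, 1.77 for Gstm5 and -3.24 for Gpx8. The 5 genes whose HMGN1-OE libraries both lay below the wild-type libraries, Gstm1, Gstp1, Gpx1, Gpx4 and Gpx8, stand beside 84.4% of all genes that did so, and the 2 that lay above stand beside 1.18%. With each library centred on its median, Gpx8 was the 1 gene still called at 36 h, and 6 genes of all were, 3 higher and 3 lower, where 48 higher and 97 lower were called before centring.

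At 96 h none of the 10 genes was called by limma, against 0.669% of all genes, and 1 of them (Gstm1) had an unadjusted p under 0.05. The median difference of all genes was 0.36 and that of the 10 was 0.51. Gstm1, Gstm7 and Gsr were the 3 genes with no overlap and higher values in HMGN1-OE cells, as in 10.2% of all genes.

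**Figure D3:**
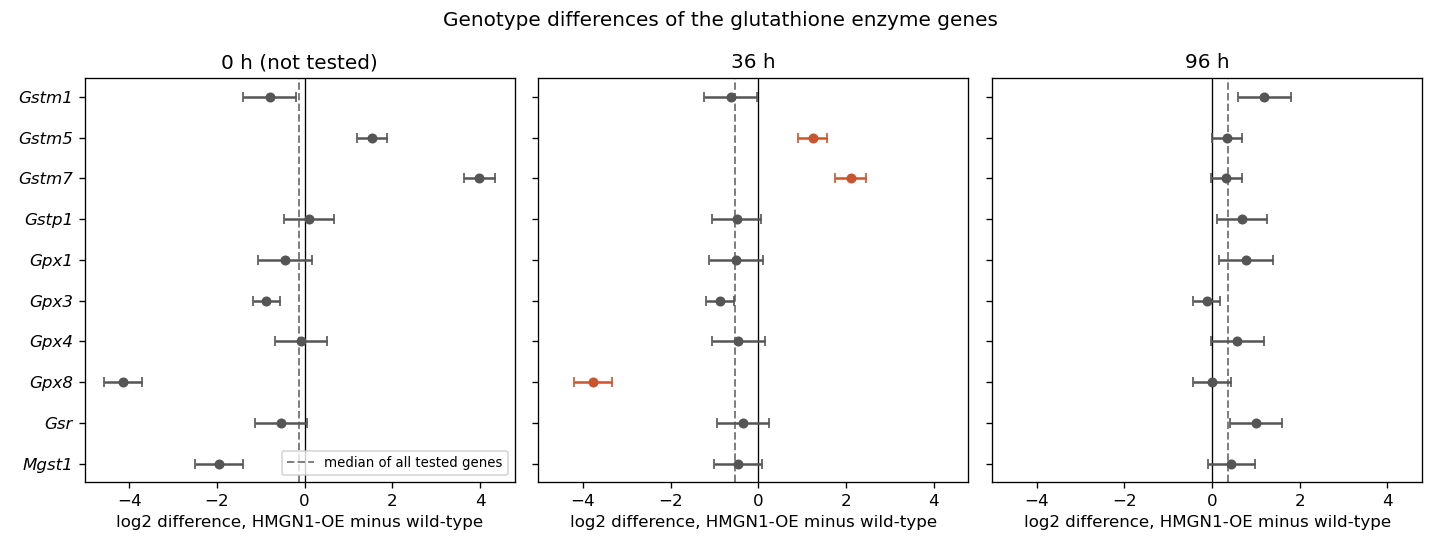
Difference of HMGN1-OE minus wild-type cells on the log2(FPKM + 1) scale for the 10 genes at 0, 36 and 96 h, with bars of 1 limma standard error and 2 libraries per group. The dashed line is the median of all tested genes, and orange marks genes with an adjusted p under 0.05. Gstm5, Gstm7 and Gpx8 stand apart from the median at 36 h, and none of the 10 was called at 96 h.

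Over time within a genotype, few early changes passed the test, which does not show that the others were small. From 0 to 36 h in wild-type cells none of the 8 genes tested was called by limma (background 0.617%), and 1, Mgst1, had an unadjusted p under 0.05. All 10 were above 0 (median 0.62) where the median of all genes was 0.47, but centring of the libraries took Gpx3, Gpx8, Gstm5 and Gstm7 below 0. In HMGN1-OE cells Mgst1 was the 1 of 8 called (background 1.8%), and the median of the 10 was 0.44 against 0.06 for all genes.

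From 36 to 96 h the median of all genes fell by 2.21 on the log2 scale in wild-type cells and fell by 1.33 in those with HMGN1-OE, so the fall of the family is read against that. In wild-type cells 8 of the 10 fell and 1, Mgst1, rose, where 86.3% of all genes fell and 3.15% rose, or 89.5% in all. The 8 include Gpx3, which passed the filter through wild-type libraries of 0 and 36 h alone and whose values overlapped (3.58 and 0.141 FPKM at 36 h against 0.218 and 0.416 FPKM at 96 h). They also include Gstm5, which was under 1 FPKM in all 6 wild-type libraries and was tested only through HMGN1-OE libraries. The change was -3.81 for Gstm1 (standard error 0.60), -3.04 for Gpx1 (0.62), -2.97 for Gstp1 (0.56) and -2.27 for Gpx4 (0.60). It was -1.998 for Gsr (standard error 0.59, limma adjusted p = 9.06e-04), -0.80 for Gpx3 and -0.78 for Gstm5, whereas centring of the libraries took Gpx4, Gsr, Gpx3 and Gstm5 above 0. Relative to the median of all genes, Gpx8 (-3.39), Gstm1 (-1.60), Gpx1 (-0.83) and Gstp1 (-0.75) fell further, and Gpx4 (-0.05) and Gsr (0.22) stayed near it. Without wild-type library B at 36 h, 7 of the 10 were called, with Mgst1 and Gstm5 (adjusted p = 0.0559) lost. Without library A, 8 were, and the change of Gpx3 was 0.20 (adjusted p = 0.552). After centring, 3 of the 10 were called higher and 4 lower, and of all genes 4402 and 3880, where 363 and 9940 were called before.

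In HMGN1-OE cells 6 of the 10 fell between these times and Mgst1 rose, where 64.9% of all genes fell and 4.02% rose, or 69% in all. The 6 include Gstm5 and Gstm7, which passed the filter only through HMGN1-OE libraries of 0 and 36 h, so the count is no support. The change was -2.10 for Gstm7 (standard error 0.36, limma adjusted p = 1.02e-07), -1.99 for Gstm1 and -1.68 for Gstm5. Gpx4 (-1.24, adjusted p = 0.0558) and Gsr (-0.65, adjusted p = 0.306) were not called, and both were above 0 after centring. Without HMGN1-OE library A at 96 h, 4 of the 10 were called. After centring, 1 was called higher and 1 lower, and of all genes 3299 and 3723, where 463 and 7479 were called before. Apart from Gpx8, none of the 10 genes passed the interaction test, and Gstm7 missed it (-1.78, standard error 0.51, adjusted p = 0.0759).

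**Figure D4:**
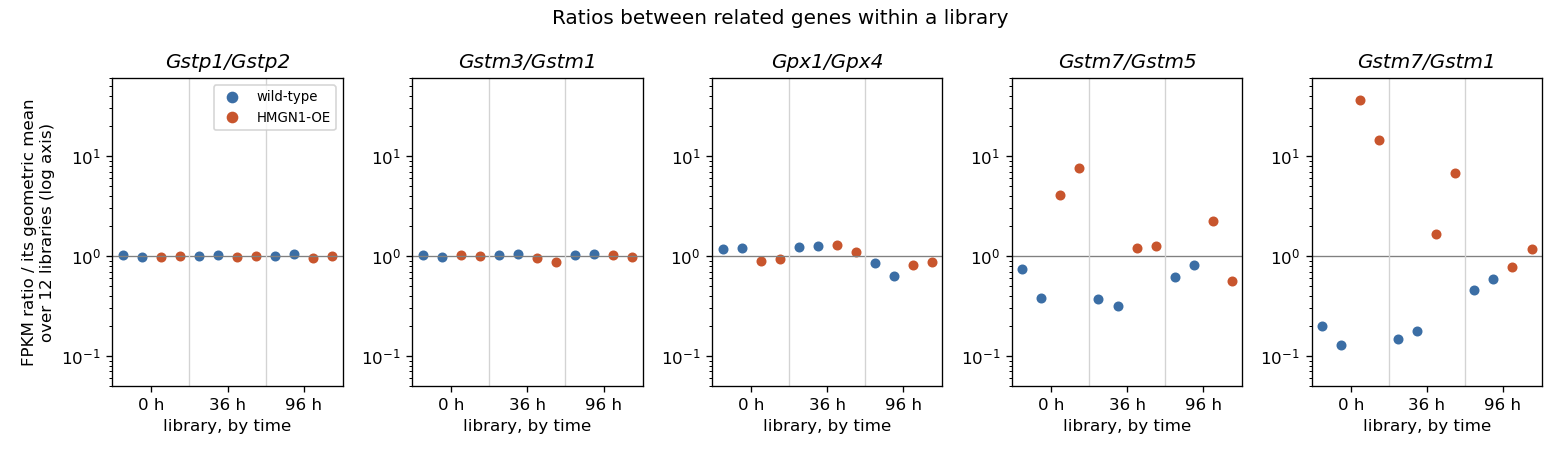
FPKM ratio of 5 gene pairs within each of the 12 libraries, divided by its geometric mean over the libraries, on a log axis and ordered by time, with wild-type in blue and HMGN1-OE in orange. Gstp1 to Gstp2 (1.36 to 1.5004) and Gstm3 to Gstm1 (0.0387 to 0.0463) stay level, Gpx1 to Gpx4 runs from 1.73 to 3.54, and the ratios that hold Gstm7 spread widely.

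Ratios within a library do not depend on how libraries are scaled to each other by a single factor. The authors' loess fit to the ERCC RNAs can vary with level, so ratios of genes at unlike levels may still depend on it. The ratio of Gpx1 to Gpx4 was 2.46 to 3.54 at 0 and 36 h and 1.73 to 2.37 at 96 h. The ratio of Gstm7 to Gstm5 was 4.66 and 8.58 in HMGN1-OE libraries at 0 h, 1.35 and 1.43 at 36 h, and 0.632 to 2.56 at 96 h. Both genes were under 1 FPKM in the HMGN1-OE libraries of 96 h, so nothing is read from the ratio there. In wild-type libraries, where both genes are near the floor, the ratio of Gstm7 to Gstm5 was 0.360 to 0.930.

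By pattern over the 12 libraries, with log2(FPKM + 1) centred on the median of each library, the genes most like Gstm7 were Hid1 (Pearson r = 0.919), Zfp783 (0.916) and Fuom (0.903). Gstm5 had r = 0.861 with Gstm7, and Gpx8 had r = -0.789. On the values as deposited, without centring, these were 0.879 for Gstm5 and -0.199 for Gpx8. Those most like Gpx8 were Bzrap1 (0.922), Slc25a13 (0.896) and Rapgef3 (0.887). These coefficients describe 12 points that share 6 groups and the same normalization, and the 0 h libraries that chose Gstm7 and Gpx8 are among them.

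The wider glutathione and redox system was described by 98 further genes, of which 80 passed the filter. It holds other transferases, glutathione synthesis, NADPH supply, glutaredoxins, thioredoxins and peroxiredoxins, superoxide dismutases and catalase, the Nrf2 axis, selenoprotein genes and glutathione-dependent eicosanoid enzymes. At 36 h none was called higher in HMGN1-OE cells and 1 was called lower, Sepp1, a secreted selenium carrier (-1.87, standard error 0.48, limma adjusted p = 0.00961), or 1.25% of the 80 against 1.26% of all genes. Sepp1 was 37.1 and 8.91 FPKM in wild-type and 4.25 and 4.36 FPKM in HMGN1-OE libraries. Without wild-type library A at 36 h its difference was -0.90 (adjusted p = 0.538), and without library B it was -2.84 (adjusted p = 4.53e-04). At 96 h 1 was called higher, Cth, which makes cysteine from cystathionine (1.79, standard error 0.38, adjusted p = 5.68e-04), and none lower, where 0.669% of all genes were called. Without HMGN1-OE library B at 96 h the Cth difference was 1.24 and was not called, and without wild-type library B it was 1.25 (adjusted p = 0.709). The median of the 80 genes was -0.53 at 36 h and 0.42 at 96 h, near those of all genes (-0.54 and 0.36).

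Of the 14 other transferase genes tested, none was called for genotype at 36 or 96 h. From 0 to 36 h in HMGN1-OE cells Mgst2, a microsomal relative of Mgst1, rose by 2.67 (standard error 0.58, limma adjusted p = 3.99e-04) and Gstm2 by 1.52 (standard error 0.39, adjusted p = 0.00664). Mgst2 went from 34.4 and 34.9 to 267 and 191 FPKM, and without HMGN1-OE library A at 36 h its adjusted p was 0.154. The Gstm2 call was lost with any of the 4 libraries left out (adjusted p from 0.0784 to 0.401). In wild-type cells Mgst2 was 45.6 and 273 FPKM at 0 h and 497 and 135 FPKM at 36 h, which overlapped. Gstm2 was 1.04 and 1.06 FPKM at 0 h and 5.52 and 4.32 FPKM at 36 h in HMGN1-OE cells.

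Nfe2l2, which encodes Nrf2, was 68.4 and 69.6 FPKM in wild-type and 54.5 and 47.8 FPKM in HMGN1-OE libraries at 36 h (-0.43, limma adjusted p = 0.507). Keap1, its inhibitor, differed by -0.57, Gclc and Gclm, the subunits of the first enzyme of glutathione synthesis, by -0.77 and -0.99, and Slc7a11, the cystine carrier, by -0.39. Hmox1 and Nqo1, classic Nrf2 targets, differed by -0.79 and -1.44, and none of these 7 genes was called at 36 h (adjusted p from 0.172 to 0.519). From 36 to 96 h, 63 of the 80 genes fell (78.8% against 86.3% of all genes) and 3 rose (3.75% against 3.15%) in wild-type cells. In HMGN1-OE cells 53 fell (66.2% against 64.9%) and 4 rose (5% against 4.02%). Ltc4s and Ptges, enzymes that make leukotriene C4 and prostaglandin E2, rose in both genotypes. Both were under 1 FPKM in all libraries of 0 and 36 h and passed the filter only through those of 96 h, so their rise is a description and no support. The same holds for Anpep, the other gene that rose in wild-type cells, which stood at 2.97 and 3.39 FPKM in them at 96 h. The count of 3 is therefore no support either. Ltc4s rose by 1.71 in wild-type (standard error 0.36) and 1.44 in HMGN1-OE cells (standard error 0.36).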

How the data were processed

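RNA with spiked-in ERCC transcripts was sequenced from TruSeq v2 libraries, a kit that does not mark strand. The authors deposited 1 table of FPKM for 23309 genes and 92 ERCC RNAs, loess-normalized by the authors through a fit to the ERCC RNAs. The submitters' processing notes name HISAT, Cufflinks 2.0.0 and mm9, whereas the study's methods name Bowtie and RPKM. The annotation is not given in the sources used here. The table holds no counts, so depth is unknown and no counting interval was given.

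The 11516 genes at 1 FPKM or more in 2 or more of 12 libraries were tested on log2(FPKM + 1) with limma 3.58.1 in R 4.3.3 (a trend of variance on level, 6 group means over all 12 libraries, two-sided, Benjamini-Hochberg over all genes tested, threshold 0.05). A fold on this scale understates the change of low genes. The prior degrees of freedom were infinite, so each p rests on the trend and not on the gene's own libraries. With 2 against 2 libraries an exact permutation test of a single gene cannot go below p = 0.333. The study describes biological duplicates but the labels name no separate cultures, so p-values measure the spread between these libraries, which may be technical. Python 3.11.15, numpy 2.4.6, pandas 2.3.3 and matplotlib 3.10.9 were used for summaries and plots. The fit of the 36 h genotype difference was also run on simulated data, with noise drawn from its own variance trend. Such data lack the shifts between libraries of a group, so that run cannot show how the fit handles them.

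The genes named are the 10 members, up to 3 called genes of each pathway list with the largest difference, 7 genes of the Nrf2 axis and glutathione synthesis whatever they did, and the 3 genes most like Gstm7 and Gpx8 by Pearson r. Gstm2, Gstm3, Gstm4 and Gstm6 of the cluster, Gstp2 and the marker genes were named after their values were seen. Alternatives were another pseudocount, filters, scalings and forms of the fit, and leaving out each library. Members and lists were chosen with earlier results of these data known. Since the 0 h genotype values chose Gstm7 and Gpx8, no test of members is given at 0 h, nor of these genes from 0 to 36 h. Gene positions are from GENCODE vM21 on GRCm38, another build than the values.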

Additional observations from a re-analysis of the deposited data

Results flagged for a closer look

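Gpx8 was singled out because its genotype difference at 36 h and at 96 h differed by a limma test of the interaction itself (3.7751 on the log2(FPKM + 1) scale, standard error 0.61, adjusted p = 2.46e-07). The value is positive because HMGN1-OE cells were lower at 36 h and the genotypes met at 96 h. At 96 h all 4 libraries lay between 0.0436 and 0.195 FPKM, around the level at which silent genes are listed. The call held in 14 of 18 alternative settings, in which the value ran from 2.79 to 4.15.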

How the results depend on the processing

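Of the values for single genes recomputed under the alternatives, 963 counted as unchanged. These kept direction and side of the threshold or, without a test, stayed within the spread between libraries. Of the rest, 69 lost a call, 14 gained one, 3 moved with no test and 57 tested values changed sign. Counts of called genes are not in this tally and are given below. The 963 include 15 values without a test that changed sign by less than the spread between libraries, 12 of them at 0 h; Gpx8 from 0 to 36 h in wild-type cells, at 0.27, ran from -0.78 to 1.31. Where a count or sign changed, the cause was not tested. No paired analysis was possible because the columns carry no replicate number shared with the sample names. The FPKM table keeps no read depth, and values near 0.1 FPKM are not told apart from silence.

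At 36 h the 3 genes called between genotypes became 2 with a pseudocount of 0.1, 0 without the filter, 1 with a mean of at least 5 FPKM, 1 after centring each library on its median, 0 after quantile normalization, 1 when only the groups compared were fitted, 1 without the trend, 0 without moderation, 4 without both wild-type B libraries of 0 and 36 h, and 1 to 3 when a library was left out. From 0 to 36 h the count in wild-type cells (0) was 0 to 2 with a library left out and 2 without both wild-type B libraries. That setting was chosen after seeing the data and sets 1 wild-type library at 0 h against 1 at 36 h, with the spread taken from the other groups, so its counts have no replicate check in wild-type cells at these times. In HMGN1-OE cells the count from 0 to 36 h (1) was 0 without the filter, after centring, after quantile normalization, without the trend and without moderation, and 0 to 1 with a library left out. From 36 to 96 h the wild-type count (9) was 5 after quantile normalization and 7 to 8 with a library left out. The HMGN1-OE count (7) was 3 without the filter, 2 after centring, 3 after quantile normalization, 4 without moderation and 4 to 7 with a library left out. The interaction count (1) was 0 without the filter, after centring, after quantile normalization and without moderation, 2 with only the groups compared, 3 without both wild-type B libraries and 1 to 2 with a library left out.

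Centring changed the sign of the 36 h difference to 0.085 for Gstp1, 0.069 for Gpx1, 0.12 for Gpx4, 0.23 for Gsr and 0.12 for Mgst1, and quantile normalization to 0.065, 0.041, 0.070, 0.22 and 0.078 for the same genes. At 96 h centring gave -0.061 for Gstm5 and -0.075 for Gstm7, quantile normalization -0.12 for Mgst1, and a pseudocount of 0.1 gave 0.022 for Gpx8. From 0 to 36 h centring gave -0.080 for Gstm5 and -0.34 for Gpx3 in wild-type and -0.023 for Gstp1 in HMGN1-OE cells, where quantile normalization gave -0.063. From 36 to 96 h in wild-type cells centring gave 1.54 for Gstm5, 2.002 for Gstm7, 1.52 for Gpx3, 0.056 for Gpx4 and 0.33 for Gsr, and quantile normalization 0.030 for Gstm7, 0.22 for Gpx3, 0.26 for Gpx4 and 0.62 for Gsr. In HMGN1-OE cells centring gave 1.30 for Gpx3, 0.11 for Gpx4 and 0.69 for Gsr, and quantile normalization 0.37, 0.20 and 0.86. For the interaction centring gave -0.23 for Gpx3 and -0.081 for Mgst1, and quantile normalization -0.059 for Gpx4 and -0.20 for Mgst1.

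With a library left out, the 36 h difference ran from -1.88 to 0.13 for Gpx3 and from -1.89 to 0.97 for Mgst1, and the 96 h difference from -0.098 to 0.097 for Gpx8 and from -0.021 to 0.70 for Gstm5. The wild-type change from 0 to 36 h ran from -0.22 to 1.501 for Gstm1, -0.87 to 1.14 for Gpx3 and -0.32 to 2.54 for Mgst1. The HMGN1-OE change ran from -0.83 to 1.01 for Gstm5, -0.46 to 0.47 for Gstp1, -0.091 to 0.59 for Gpx4 and -0.032 to 0.29 for Gpx3. From 36 to 96 h Gpx3 ran from -1.80 to 0.20 in wild-type and -0.21 to 0.12 in HMGN1-OE cells. The interaction ran from -0.25 to 1.76 for Gpx3 and -0.53 to 2.33 for Mgst1.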
